A study of Mus musculus with 12 samples.

Results

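The genes described here are 4 fibroblast growth factor (FGF) receptors, Fgfr1 to Fgfr4, and 5 FGF ligands, Fgf2, Fgf7, Fgf9, Fgf10 and Fgf18, out of 35241 gene symbols measured. They were chosen by name as receptors and as ligands made mainly by cells beneath the epithelium, and the deposited values of their 86 transcripts were summed to 1 value per gene. RNA of full-thickness distal colon was sequenced from 12 mice of 2 litters, A and B. Spry2IEKO mice (Vil1::Cre;Spry2-f/f, n = 6) carried 2 floxed alleles of Spry2 and a Cre transgene under the villin promoter, which removes the gene from intestinal epithelial cells and leaves it in the muscle, stroma and nerves of the wall. Spry2FF mice (Spry2-f/f, n = 6) were littermates with the same floxed alleles and no Cre, and mice with Cre alone are not part of the comparison. Each litter gave 3 mice of each genotype, and sexes were uneven, with 3 males among the Spry2FF mice and 1 male among the Spry2IEKO mice. The labels give an age of 6 weeks in one protocol and of 8 weeks in the other.

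FGF receptors are tyrosine kinases that bind an FGF together with heparan sulfate and pass the signal through the adaptor Frs2 to the Ras and ERK pathway. Sprouty2, the product of Spry2, is made in response to this pathway and limits it. In Fgfr1, Fgfr2 and Fgfr3, alternative splicing of a pair of exons that encode part of the extracellular immunoglobulin domain III decides which ligands bind, and the IIIb form is typical of epithelium while the IIIc form is typical of mesenchyme. Fgf7 and Fgf10 come from mesenchyme and act mainly on the IIIb form of Fgfr2 in the epithelium, whereas Fgf2, Fgf9 and Fgf18 act largely on IIIc forms, and Fgf9 also on the IIIb form of Fgfr3. Fgfr4 has no such pair of exons.

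The IIIb exons of Fgfr2 and Fgfr3 and the IIIc exon of Fgfr3 are shown because they define isoforms counted here, and IIIb forms of these receptors are the ones known from epithelium. They were read from the GENCODE M21 transcripts of GRCm38, on the strand of each gene. The IIIb exon of Fgfr2 lies at chr7:130199758-130199905 (minus strand), and the IIIb and IIIc exons of Fgfr3 lie at chr5:33731281-33731431 and chr5:33732117-33732261 (plus strand). Capitals in the IIIb exons mark bases that are the same in the aligned IIIb exon of the other receptor, and capitals in the IIIc exon mark bases that are the same in the aligned IIIb exon of Fgfr3.
Fgfr2 IIIb: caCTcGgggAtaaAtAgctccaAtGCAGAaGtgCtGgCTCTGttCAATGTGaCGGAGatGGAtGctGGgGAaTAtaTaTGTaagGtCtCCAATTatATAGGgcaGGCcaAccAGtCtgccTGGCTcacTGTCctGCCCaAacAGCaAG
Fgfr3 IIIb: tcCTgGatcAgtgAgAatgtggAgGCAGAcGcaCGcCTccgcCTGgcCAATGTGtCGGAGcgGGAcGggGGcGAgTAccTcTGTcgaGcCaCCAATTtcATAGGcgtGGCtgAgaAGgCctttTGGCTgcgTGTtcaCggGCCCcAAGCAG
Fgfr3 IIIc: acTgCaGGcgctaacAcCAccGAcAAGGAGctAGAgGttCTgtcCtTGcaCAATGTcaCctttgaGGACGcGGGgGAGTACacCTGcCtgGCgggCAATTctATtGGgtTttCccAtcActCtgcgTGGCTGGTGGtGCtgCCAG
These exons are coding. The IIIc exons of the 3 receptors were alike in 75.2% to 80.7% of aligned positions between receptors. The IIIb exons of Fgfr1 and Fgfr2 were alike in 74% of positions, and that of Fgfr3 was alike in 51.3% with Fgfr1 and in 54.8% with Fgfr2. Within a receptor, the pair was alike in 50.6% to 55.2% of positions, so that a read inside either exon can be told from the other.

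Values are TPM, a measure of transcript abundance per length and library, after a further scaling that made mice comparable, called normalized TPM here. Their totals ran from 918816 to 1069158 per mouse and are not read counts, so the depth behind a value is unknown and no counting interval is given. Spry2 served as a check of the labels and was lower in all 6 Spry2IEKO mice (18.5 to 22.5 normalized TPM) than in all 6 Spry2FF mice (22.8 to 32.3). Markers of epithelium, smooth muscle and fibroblasts were high in every mouse. Of 12 epithelial markers, 11 were lower in Spry2IEKO mice, where 52.1% of all genes were higher. Of these 12, 7 were lower at an unadjusted p under 0.05 by limma, against 6.18% of all genes in either direction. None of the markers passed after adjustment. The mean z-score of these markers averaged 0.458 ± 0.382 (SD) over the 6 Spry2FF and -0.458 ± 0.546 over the 6 Spry2IEKO mice (p = 0.00866 by a two-sided exact permutation test), and their summed level ran from 10344 to 12791 and from 8780 to 11314 normalized TPM. Fat markers were high in 2 Spry2IEKO mice of litter A, replicates 4 and 5, where the score was 1.748 and 2.158 against -0.708 to 0.448 in the other mice. The summed fat level ran from 20.2 to 802 normalized TPM in Spry2IEKO mice and from 21.3 to 76.5 in Spry2FF mice, and none of the 6 fat markers was at 0 in all mice. In bulk tissue, fewer cells of a type and less RNA per cell cannot be told apart.

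The receptors together were more abundant than the ligands together in each of the 12 mice. Over all mice, the summed level of the 4 receptors was 103 ± 12.7 (SD) normalized TPM and that of the 5 ligands 11.8 ± 2.20 (SD). Fgfr2 was highest at a mean of 52.2, followed by Fgfr3 at 30.5, Fgfr1 at 13.5 and Fgfr4 at 7.07 normalized TPM. Each receptor was above the next in 12 of 12 mice. Fgfr2 stood in the upper part of the transcriptome, with 11.1% of the genes detected in some mouse above it, and Fgf10 near the middle, with 55.1% above it. The ligands Fgf7 (2.98), Fgf2 (2.90) and Fgf9 (2.76 normalized TPM) did not differ beyond their spread, and Fgf7 was above Fgf2, and Fgf2 above Fgf9, in 6 of 12 mice. Fgf18 (1.74) and Fgf10 (1.42) were lowest, with Fgf9 above Fgf18 in 10 mice and Fgf18 above Fgf10 in 8. This order depended on the transcripts summed, since with full-length coding transcripts alone (at least 450 coding bases) Fgf10 at 1.34 was above Fgf9 at 1.28 in 7 of 12 mice and Fgf18 was lowest at 0.452.

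The question of the genotype comparison was whether loss of Sprouty2 from the epithelium goes with a change in the receptors or in the ligands that act on them. None of the 9 genes differed between genotypes by limma on log2(normalized TPM + 0.5), a scale that understates the change of low genes, with Benjamini-Hochberg adjustment over 15880 genes. By the same test 5 genes, or 0.0315% of all tested, passed an adjusted p of 0.05. Among them were Etv4 and, named because the count is small, B4galnt2, Cma1 and Myo18b. At an unadjusted p under 0.05, 0 of 9 members and 6.18% of all genes were called. Of the members, 3 were higher and 6 lower in Spry2IEKO mice, with a median log2 fold change of -0.067 against 0.008 over all genes. For every member the ranges of both genotypes overlapped, whereas those of 0.403% of all genes did not.

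**Figure D1:**
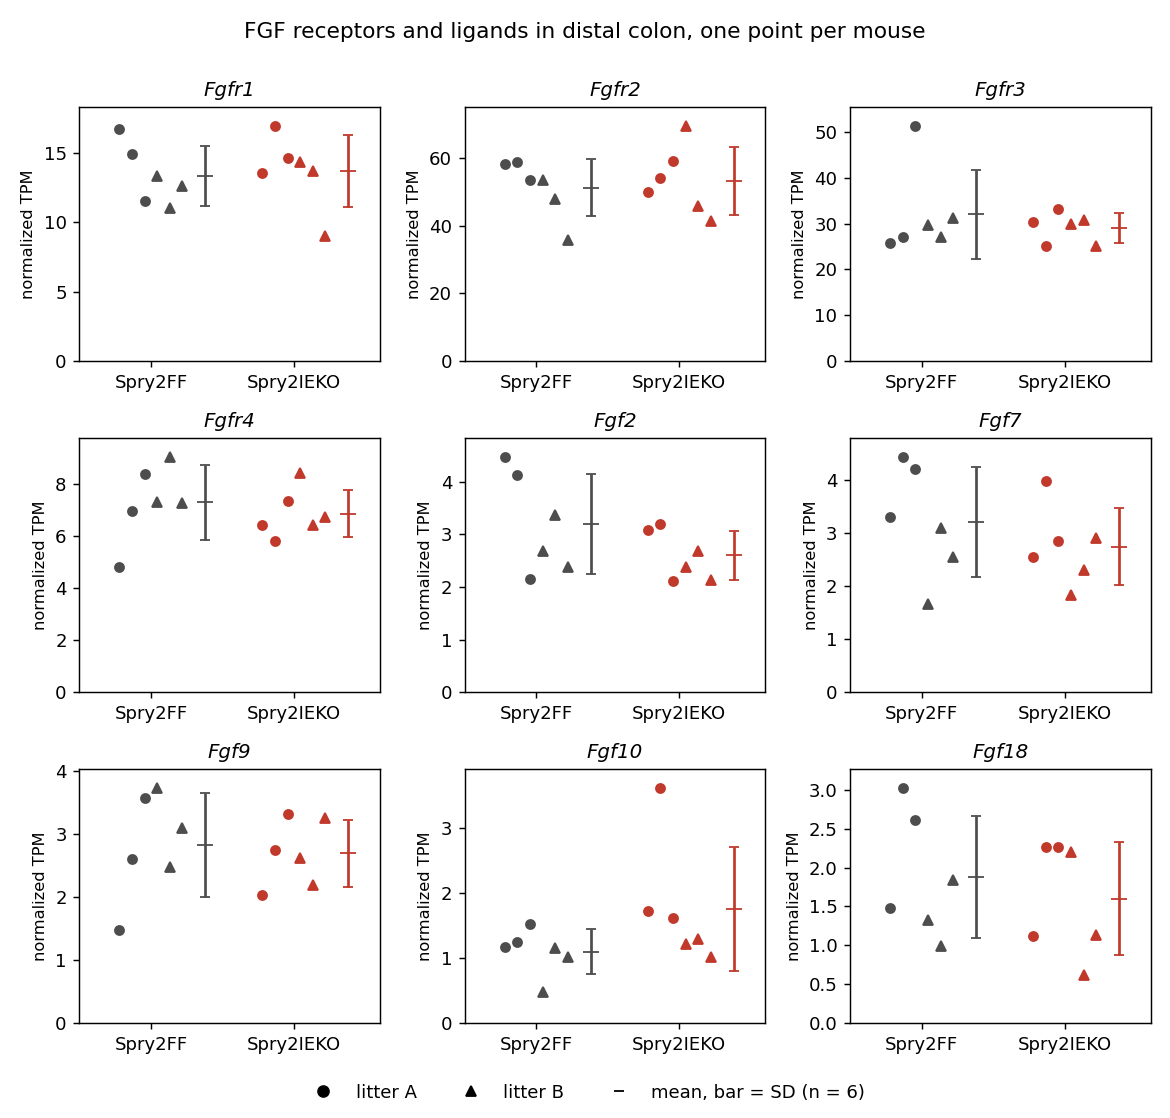
Level of each of the 9 genes in normalized TPM (y axis, from 0) in 6 Spry2FF and 6 Spry2IEKO mice; each symbol is a mouse, circles are litter A and triangles litter B, and the bar gives mean ± SD. The genotypes overlap in all 9 panels, Fgfr3 stands at 51.2 in 1 Spry2FF mouse, and Fgf10 at 3.62 in 1 Spry2IEKO mouse.

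Fgfr2, which as IIIb carries the Fgf7 and Fgf10 signal into the epithelium (ENSMUSG00000030849, chromosome 7, 130162451 to 133123350), ranged from 35.8 to 58.6 normalized TPM with a median of 53.4 in Spry2FF mice, and from 41.2 to 69.3 with a median of 52.0 in Spry2IEKO mice. The log2 fold change was 0.05 (standard error 0.139, 95% interval -0.25 to 0.35, adjusted p = 0.967 by limma). On this scale, a rise of more than 1.28 times or a fall to less than 0.842 of the control level lies outside the interval.

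Fgfr3, a receptor of crypt epithelium and other tissues for Fgf9 and Fgf18 (ENSMUSG00000054252, chromosome 5, 33721674 to 33737068), ranged from 25.8 to 51.2 normalized TPM with a median of 28.3 in Spry2FF mice and from 25.0 to 33.1 with a median of 30.2 in Spry2IEKO mice. A single mouse, Spry2FF replicate 7, lay at 51.2, and the other 5 of its genotype lay between 25.8 and 31.1. The log2 fold change was -0.10 (95% interval -0.42 to 0.22, adjusted p = 0.937 by limma), and without that mouse it was 0.04. In the same mouse the main IIIb transcript of Fgfr3 stood at 15.4 and the short transcript Fgfr3-217 at 18.8 normalized TPM, so that both were higher there.

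Fgfr1, the main receptor of fibroblasts and smooth muscle (ENSMUSG00000031565, chromosome 8, 25513654 to 25575718), ranged from 11 to 16.7 normalized TPM with a median of 12.9 in Spry2FF mice and from 9.01 to 16.9 with a median of 14.0 in Spry2IEKO mice. Its log2 fold change was 0.03 (95% interval -0.28 to 0.34, adjusted p = 0.987 by limma). Fgfr4, best known as the bile acid-regulating receptor of liver (ENSMUSG00000005320, chromosome 13, 55152640 to 55168759), ranged from 4.81 to 9.03 normalized TPM with a median of 7.27 in Spry2FF mice and from 5.82 to 8.41 with a median of 6.57 in Spry2IEKO mice. Its log2 fold change was -0.07 (95% interval -0.37 to 0.24, adjusted p = 0.957 by limma). In females alone, 5 Spry2IEKO against 3 Spry2FF mice, Fgfr4 was lower by a difference of -1.67 normalized TPM (two-sided exact permutation test over 56 splits, p = 0.0357), 1 of 12 values tested there without adjustment. The females were uneven by litter, with 1 Spry2FF and 3 Spry2IEKO mice in litter A and 2 of each in litter B. The test did not account for litter, and over all mice Fgfr4 was higher in litter B by 0.18 on the log2 scale.

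Fgf10, a mesenchymal ligand of the IIIb receptors (ENSMUSG00000021732, chromosome 13, 118669791 to 118792115), had the largest fold change of the members. It ranged from 0.483 to 1.53 normalized TPM with a median of 1.16 in Spry2FF mice and from 1.02 to 3.62 with a median of 1.45 in Spry2IEKO mice. The log2 fold change was 0.44 (95% interval -0.11 to 0.98, adjusted p = 0.837 by limma), and the two-sided exact permutation test gave p = 0.0931. In litter A the Spry2FF mice stood at 1.17, 1.24 and 1.53 and the Spry2IEKO mice at 1.73, 3.62 and 1.61 normalized TPM. In litter B they stood at 0.483, 1.16 and 1.01 and at 1.21, 1.29 and 1.02. The genotypes thus did not overlap in litter A, which held for 1 of 9 members and 11.9% of all genes there, whereas they did in litter B. In litter A all 3 Spry2IEKO mice were female and 2 of the 3 Spry2FF mice were male. In females of both litters the difference was 0.624 normalized TPM (two-sided exact permutation test, p = 0.411), again without account of the uneven litters. With permutations restricted to mice of the same litter (400 arrangements), the exact p was 0.015, the lowest of 12 values tested this way without adjustment.

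The mouse with the highest Fgf10, Spry2IEKO replicate 5, also had the highest fat score. Its fibroblast score, 1.345, was the highest too, followed by Spry2IEKO replicate 4 at 1.030. Epithelial scores were lowest in these mice, at -0.732 in replicate 5 and -1.280 in replicate 4. A part of fat apart from this wider shift was not tested. Without replicate 5 the within-litter exact p was 0.09, and without both fat-rich mice, replicates 4 and 5, it was 0.362 with a difference of 0.184 normalized TPM in place of 0.649. The log2 fold change was 0.25 without replicate 5, 0.18 without both mice and 0.27 with the fat score as a covariate, all chosen after the values were seen except the first. In those 2 mice 5 of 6 fat markers reached at least 12.6 normalized TPM, Adipoq among them at 57.8 and 70.8, and their part in the Fgf10 difference was not otherwise tested.

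Fgf7, keratinocyte growth factor (ENSMUSG00000027208, chromosome 2, 126034658 to 126091185), ranged from 1.66 to 4.44 normalized TPM with a median of 3.20 in Spry2FF mice and from 1.83 to 3.99 with a median of 2.71 in Spry2IEKO mice. Its log2 fold change was -0.17 (95% interval -0.64 to 0.29, adjusted p = 0.919 by limma). Fgf10 and Fgf7, which share a receptor, thus had fold changes of opposite sign, and neither passed.

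Fgf2, basic FGF (ENSMUSG00000037225, chromosome 3, 37348346 to 37410108), ranged from 2.15 to 4.47 normalized TPM with a median of 3.02 in Spry2FF mice and from 2.11 to 3.20 with a median of 2.53 in Spry2IEKO mice. The log2 fold change was -0.23 (95% interval -0.62 to 0.16, adjusted p = 0.883 by limma). The 2 highest values, in Spry2FF replicates 2 and 3, held 1.96 and 1.68 normalized TPM of Fgf2-207, a retained-intron transcript of 1 exon and 257 bases that was listed at 0 in the other 10 mice. The coding transcript Fgf2-208, 87.9% of the gene, was 2.50 ± 0.229 (SD, n = 6) in Spry2FF mice and 2.60 ± 0.470 (SD, n = 6) in Spry2IEKO mice.

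Fgf9, a ligand of several IIIc receptors and of Fgfr3 IIIb (ENSMUSG00000021974, chromosome 14, 58070547 to 58112720), ranged from 1.47 to 3.74 normalized TPM with a median of 2.86 in Spry2FF mice and from 2.03 to 3.33 with a median of 2.68 in Spry2IEKO mice (log2 fold change -0.03, 95% interval -0.45 to 0.39). Fgf18, a ligand best known from bone and lung (ENSMUSG00000057967, chromosome 11, 33117430 to 33147400), ranged from 0.992 to 3.03 normalized TPM with a median of 1.66 in Spry2FF mice and from 0.622 to 2.27 with a median of 1.67 in Spry2IEKO mice (log2 fold change -0.20, 95% interval -0.80 to 0.41). Their adjusted p by limma was 0.988 and 0.933. The intervals were widest for Fgf18, from 0.573 to 1.33 times the control level, and for Fgf10, from 0.930 to 1.98 times.

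**Figure D2:**
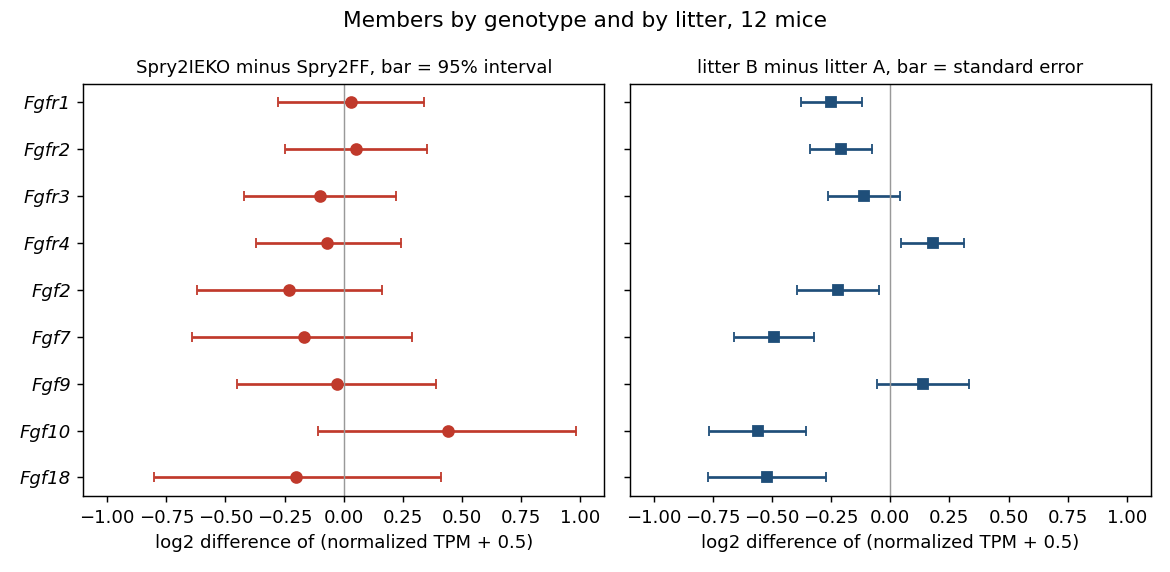
Log2 difference of (normalized TPM + 0.5) of the 9 genes between genotypes (left, bars are 95% intervals) and between litters (right, bars are standard errors), from limma over 12 mice. All intervals on the left cross 0, and on the right Fgf7, Fgf10 and Fgf18 lie at -0.49, -0.56 and -0.52.

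The litters differed in more genes than the genotypes did. The sample descriptions carry a leading code that is the same within a litter and differs between litters, so that litter and whatever this code marks cannot be told apart. Over all genes, 696 (4.38%) differed between litters at an adjusted p of 0.05 by limma with genotype as a covariate, 171 higher and 525 lower in litter B. With each mouse rescaled to the same total, 105 were higher and 1351 lower, and the median over all genes moved from -0.049 to -0.124. Of the members, 0 of 9 passed after adjustment, 2 of 9 had an unadjusted p under 0.05 against 21.9% of all genes, and 7 were lower in litter B against 58.8% of all genes. Their median was -0.218.

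The members that leaned most toward litter A were the ligands Fgf7, Fgf10 and Fgf18. Fgf7 ran from 2.56 to 4.44 normalized TPM with a median of 3.65 in litter A and from 1.66 to 3.09 with a median of 2.44 in litter B (log2 difference -0.49, standard error 0.170, unadjusted p = 0.0136, adjusted p = 0.116 by limma). Fgf10 ran from 1.17 to 3.62 with a median of 1.57 and from 0.483 to 1.29 with a median of 1.09 (log2 difference -0.56, standard error 0.204, unadjusted p = 0.0187, adjusted p = 0.136 by limma). Fgf18 ran from 1.12 to 3.03 and from 0.622 to 2.20, a log2 difference of -0.52 (adjusted p = 0.252 by limma). All 3, and the other 6 members, overlapped between litters, whereas 3.72% of all genes did not. Fgf9 and Fgfr4 leaned the other way, by 0.14 and 0.18 on the log2 scale.

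Markers of stromal cells moved with the litter too. The score of 12 fibroblast markers ran from 0.053 to 1.345 in litter A and from -1.455 to 0.035 in litter B, without overlap, with summed levels of 577 to 945 and 317 to 556 normalized TPM, and 5 of the 12 markers were lower in litter B after adjustment. The endothelial score ran from 0.392 to 1.537 in litter A and from -1.296 to -0.315 in litter B, and that of interstitial cells of Cajal from 0.219 to 0.789 and from -1.419 to 0.183, both without overlap. For macrophages the mean score of litter B minus that of litter A was -1.1 (two-sided exact permutation test, p = 0.0195), while those of smooth muscle and mesothelium differed by -0.299 and -0.288 (exact p = 0.571 and 0.242). Of the 6 mesothelium markers, 3 reached a mean of 0.5 normalized TPM, among them Krt19, which is also an epithelial marker here. The mesothelium score therefore cannot be read as a measure of mesothelium alone. The part of stromal cells in the litter difference of Fgf7, Fgf10 and Fgf18 was not tested apart from the slopes given next.

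The difference between genotypes was not shown to depend on the litter for any member. The interaction of genotype and litter passed an adjusted p of 0.05 in 2 genes (0.0126%), Gm44478 and Gm9385, named for the small count, and in 0 of 9 members, where the lowest unadjusted p was 0.394. Of all genes, 4.19% had an unadjusted p under 0.05 in this test.

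To place the members among the layers of the wall, their log2 values were fitted against the marker score of each mouse, in 1 fit over all genes for each score. The slope on the smooth muscle score was 0.23 per score unit for Fgfr2 (standard error 0.0548, unadjusted p = 0.0011, adjusted p = 0.0807 by limma) and 0.22 for Fgfr1 (standard error 0.0600, unadjusted p = 0.00275, adjusted p = 0.121 by limma). These were 2 of 9 members at an unadjusted p under 0.05, against 14.3% of all genes, and none passed after adjustment, which 144 genes did (0.907%; 119 rising and 25 falling, or 163 and 0 with rescaling). Fgfr2 stood at 69.3 normalized TPM in Spry2IEKO replicate 8, which had the highest muscle score, 1.513, and at 41.2 in Spry2IEKO replicate 12, which had the lowest, -1.588. The lowest Fgfr2 level, 35.8 in Spry2FF replicate 13, came with a muscle score of -0.577.

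On the fibroblast score, Fgf10 had a slope of 0.39 (standard error 0.125, unadjusted p = 0.00765, adjusted p = 0.0842 by limma), Fgf7 of 0.24 (unadjusted p = 0.0452) and Fgfr1 of 0.19 (unadjusted p = 0.0154). These were 3 of 9 members at an unadjusted p under 0.05, against 23.4% of all genes, and 0 after adjustment, against 5.16% (615 rising and 204 falling, or 674 and 100 with rescaling). With litter and genotype as covariates the slope of Fgf10 was 0.37, that of Fgfr1 0.20 and that of Fgf7 0.01. Without 1 mouse at a time, the slope of Fgf10 ran from 0.24, without Spry2IEKO replicate 5, to 0.47. That of Fgfr1 ran from 0.12, without Spry2IEKO replicate 12, to 0.22, and that of Fgf7 from 0.18 to 0.34. Since the fibroblast score separated the litters, its slope and the litter cannot be told apart in the fit without covariates.

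On the epithelial score, 1 of 9 members had an unadjusted p under 0.05, against 15.1% of all genes, and 0 passed after adjustment, against 0.0756%. This was Fgf10, with a slope of -0.49 (standard error 0.176, unadjusted p = 0.0154, adjusted p = 0.223 by limma) that went to -0.28 with litter and genotype as covariates. The slopes of Fgfr2 and Fgfr3, whose IIIb forms are known from epithelium, were -0.01 and 0.06.

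**Figure D3:**
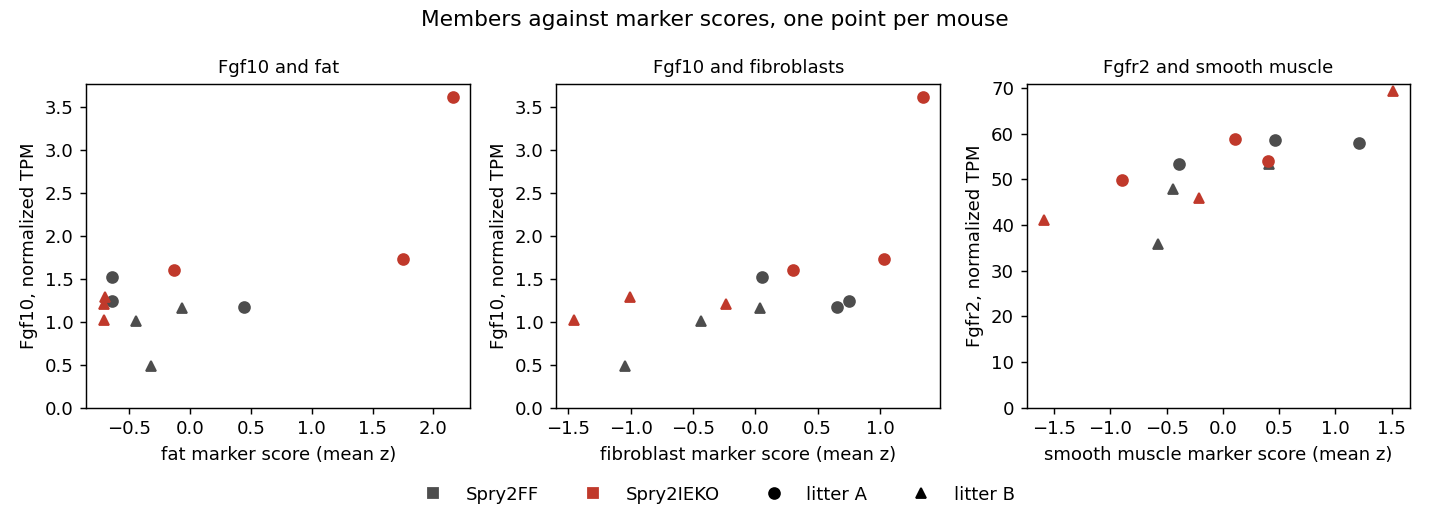
Fgf10 against the fat and fibroblast marker scores and Fgfr2 against the smooth muscle marker score, 1 symbol per mouse (y axis in normalized TPM from 0, x axis the mean z-score of the markers over 12 mice; gray Spry2FF, red Spry2IEKO, circles litter A, triangles litter B). The mouse at 3.62 for Fgf10 has the highest fat score, 2.158, and Fgfr2 runs from 35.8 to 69.3.

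The receptor sums hid different transcripts. Of 19, 27 and 17 transcripts listed for Fgfr1, Fgfr2 and Fgfr3, a part holds the IIIb or the IIIc exon and the rest neither, apart from 1 Fgfr1 transcript with both. Transcripts with neither exon made up 34.0% of the Fgfr1 sum, 67.9% of the Fgfr2 sum and 51.5% of the Fgfr3 sum. Full-length coding transcripts (at least 1800 coding bases) came to 16.7 normalized TPM for Fgfr2, 14.4 for Fgfr3, 8.22 for Fgfr1 and 6.01 for Fgfr4. On this count Fgfr2 was above Fgfr3 in 7 of 12 mice only, at 1.16 times its mean, where the gene sums stood at 1.71 times. The genotype difference of full-length Fgfr2 was -2.11 normalized TPM (17.8 ± 6.13 in Spry2FF and 15.7 ± 4.98 in Spry2IEKO mice, SD, n = 6 each; two-sided exact permutation test, p = 0.524), against 2.02 for the gene sum, so that its sign depended on the transcripts summed.

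The most abundant Fgfr2 transcript was Fgfr2-217 (ENSMUST00000124096.7), at 19.3 normalized TPM or 37.0% of the gene, and between 15.9 and 23.5 in every mouse. It is annotated with 7 exons and 546 coding bases. Of these exons, 5 overlap other Fgfr2 transcripts and lie at the 3′ end of the gene, and 2 lie upstream of all other Fgfr2 exons by 2.82 Mb. The 5 shared exons hold 2111 of its 2425 bases, and none of the table's values tells reads of its own exons from reads shared with full-length Fgfr2. Fgfr2-221, a retained-intron transcript of 790 bases, came next at 8.03 normalized TPM. In Fgfr3, the full-length IIIb transcript Fgfr3-211 held 39.1% of the sum and Fgfr3-217, a fragment of 780 coding bases at the 3′ side of the pair, 31.1%. Such short transcripts overlap the full-length ones, so their split is uncertain.

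Among transcripts with 1 exon of the pair, IIIb led in Fgfr3 and Fgfr2 and IIIc in Fgfr1. The IIIb share was 83.1% ± 5.06 (SD, n = 12) in Fgfr3, 63.6% ± 6.67 in Fgfr2 and 26.9% ± 11.9 in Fgfr1. IIIb transcripts came to 12.3 normalized TPM for Fgfr3 and 10.7 for Fgfr2, against 2.28 for Fgfr1, while IIIc transcripts came to 2.50, 6.08 and 5.94. In each of the 12 mice the IIIb share was above 50% in Fgfr2 (55.0% to 75.2%) and in Fgfr3 (72.2% to 88.5%), and the highest share of Fgfr1 was 51.7%.

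**Figure D4:**
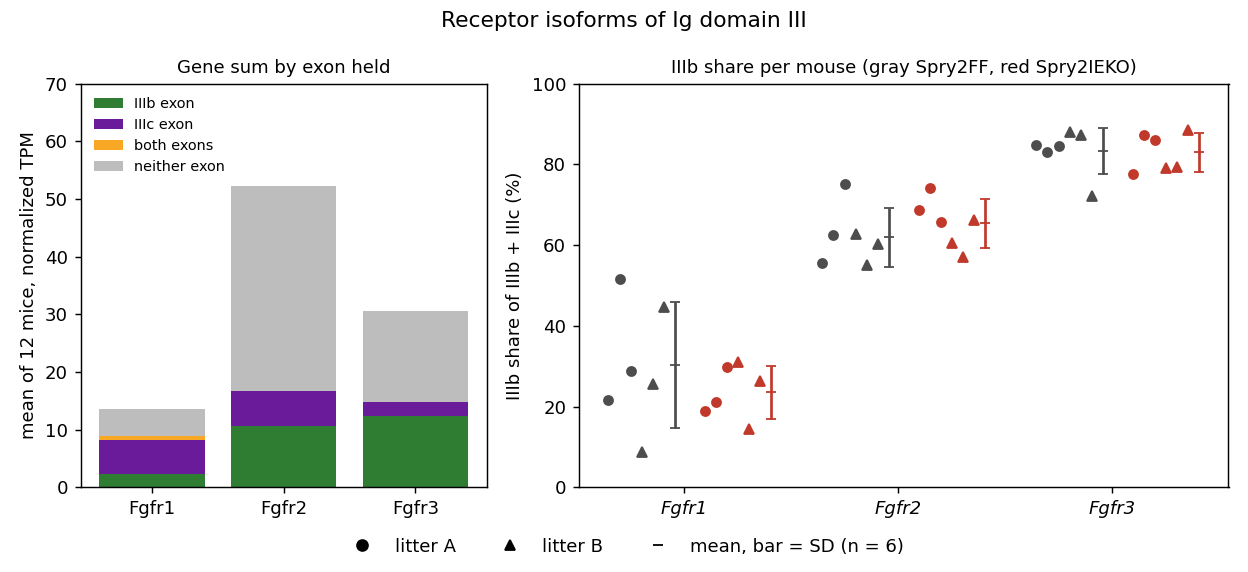
Left, mean level over 12 mice in normalized TPM of the transcripts of each receptor, stacked by whether they hold the IIIb exon, the IIIc exon, both or neither. Right, the IIIb share in percent of IIIb and IIIc transcripts per mouse (gray Spry2FF, red Spry2IEKO, circles litter A, triangles litter B, bars mean ± SD of 6 mice). Shares average 26.9% in Fgfr1, 63.6% in Fgfr2 and 83.1% in Fgfr3, and the genotypes overlap in each.

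The IIIb shares did not differ between genotypes beyond the spread between mice. In Fgfr2 the share ran from 55.0% to 75.2% with a median of 61.4% in Spry2FF mice and from 57.0% to 74.2% with a median of 65.9% in Spry2IEKO mice, a difference of 3.54 percentage points (two-sided exact permutation test, p = 0.385). It was 5.14 points within litter A and 1.94 within litter B. In Fgfr1 the medians were 27.2% and 23.8%, with a difference of -6.58 points (exact p = 0.370). In Fgfr3 they were 84.7% and 82.7%, with a difference of -0.361 points (exact p = 0.903). Of these 3 shares and the 9 gene levels, 0 of 12 had an exact p under 0.05, where 6.01% of all genes did, and the smallest p that 6 mice against 6 allow is 0.00216.

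Across single transcripts, 37 of the 86 had a mean of at least 0.5 normalized TPM and were tested, and 0 passed an adjusted p of 0.05 by limma, where 1 of 45448 transcripts (0.0022%) did, ENSMUST00000038343.6, given for the small count. At an unadjusted p under 0.05 there was 1 member transcript against 4.95% of all, Fgfr2-224, a retained-intron transcript of 335 bases. It was above 5 normalized TPM in 1 of 6 Spry2FF mice, replicate 3, at 10.8, and had medians of 0.107 and 5.47 in Spry2FF and Spry2IEKO mice. For the share of a transcript within its gene, 30 member transcripts were tested and 0 passed, as for all 30429 (0%). Here too 1 had an unadjusted p under 0.05, against 4.47% of all, and this was Fgf2-208 with a log2 difference of 0.96, whose counterpart Fgf2-207 was described above.

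The ligands were simpler. Fgf10-201 held 94.4% of Fgf10, and Fgf7-201 and Fgf7-202, both with 582 coding bases, held 77.0% and 13.9% of Fgf7. In Fgf9 the full-length Fgf9-201 held 46.3% and Fgf9-203, with 273 coding bases, 38.7%. In Fgf18 the full-length Fgf18-201 (621 coding bases) held 25.9% and was above 0 in 4 of 12 mice, while Fgf18-202 (294 coding bases) held 74.1% and was above 0 in 11. Both share the 3′ end of the gene, so this split is uncertain. In Fgfr4, Fgfr4-201 held 85.1%.

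Other genes of the pathway were read from lists chosen by function. Of the genes given here, Fgf11, Klb, Nrp1, Esrp1, Esrp2, Etv5 and Dusp6 were picked after their values were seen, and the others by the rule for named genes. Of 17 other FGF genes, 14 had a mean under 0.5 normalized TPM and 3 were tested, Fgf1, Fgf11 and Fgf13. Fgf1, a ligand of all FGF receptors, was more abundant than any of the 5 ligands above, at 17.5 ± 3.45 (SD, n = 6) in Spry2FF mice and 21.2 ± 2.83 (SD, n = 6) in Spry2IEKO mice (log2 fold change 0.28, unadjusted p = 0.0478, adjusted p = 0.803 by limma). Fgf13, which acts mainly inside cells, had a log2 fold change of -0.26 (adjusted p = 0.873 by limma).

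Co-receptors and binding proteins gave 0 of 10 tested genes past the threshold, against 0.0315% of all genes. Fgfbp3, a carrier that frees FGFs from heparan sulfate, had a log2 fold change of 0.44 (adjusted p = 0.819 by limma), and Flrt3, a membrane partner of FGF receptors, one of 0.28 (adjusted p = 0.833 by limma). Klb, the co-receptor for endocrine FGFs, and Nrp1 were lower in litter B by -0.71 and -1.02 on the log2 scale (adjusted p = 0.0199 and 0.00734 by limma).

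Among 22 tested heparan sulfate genes, 0 passed, 16 were lower and 6 higher in Spry2IEKO mice, and the median log2 fold change was -0.063. Over all genes, 0.0315% passed, 52.1% were higher in Spry2IEKO mice, and the median was 0.008. Hs6st1, which adds sulfate to heparan chains and so alters FGF binding, was lower in all 6 Spry2IEKO mice (28.9 to 33.3, median 31.5 normalized TPM) than in all 6 Spry2FF mice (33.8 to 44.0, median 38.7). Such a separation held for 0.403% of all genes, and Hs6st1 was named for its low p within the list. Its log2 fold change was -0.32 (standard error 0.0722, unadjusted p = 0.000591, adjusted p = 0.276 by limma), with -0.36 inside litter A and -0.29 inside litter B. The epithelial markers were also lower in these mice, with a median log2 fold change of -0.214, and their part in the Hs6st1 difference was not tested. Hs2st1, another sulfotransferase of this pathway, had a log2 fold change of -0.18 (adjusted p = 0.826 by limma).

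Of 12 receptor adaptors, 0 passed, with a median log2 fold change of -0.059 against 0.008 over all genes. Frs3, a relative of Frs2, and Crkl had log2 fold changes of 0.37 and -0.13. Of 8 splicing factors known to act on the choice between IIIb and IIIc, 0 passed. Esrp1 and Esrp2, which favor IIIb in epithelium, were 118 and 44.2 normalized TPM in Spry2FF mice and 118 and 43.5 in Spry2IEKO mice, and Srsf1 and Celf1, the members of the list with the lowest p, had log2 fold changes of 0.09 and -0.05.

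Feedback and readout genes of FGF and ERK signaling gave the only call between genotypes among these lists. Of 12 tested, Etv4 passed, where 0.0315% of all genes did. At an unadjusted p under 0.05 there were 3, all higher in Spry2IEKO mice, against 6.18% of all genes in either direction. The median log2 fold change was 0.260 against 0.008 over all genes. Etv4, a transcription factor induced by FGF signaling, ran from 9.22 to 18 normalized TPM with a median of 10.5 in Spry2FF mice and from 21.0 to 26.1 with a median of 24.2 in Spry2IEKO mice (adjusted p = 0.043 by limma). The adjusted p was 0.0532 with litter as a covariate, 0.169 with sex as a covariate and 0.0783 without the filter on low values, at a log2 fold change of 0.98 in each. Without 1 mouse at a time the adjusted p by limma ran from 0.00375, without Spry2FF replicate 10, to 0.17, and it was above 0.05 in the other 11 cases. The other 2 at an unadjusted p under 0.05 were Dusp6, an ERK phosphatase (21.0 to 32.1 and 29.4 to 42.0 normalized TPM), and Etv5, a relative of Etv4 (2.57 to 5.10 and 4.35 to 8.71), both with overlapping genotypes. Many receptor tyrosine kinases act on these genes, and these values do not tell FGF receptors from the others.

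**Figure D5:**
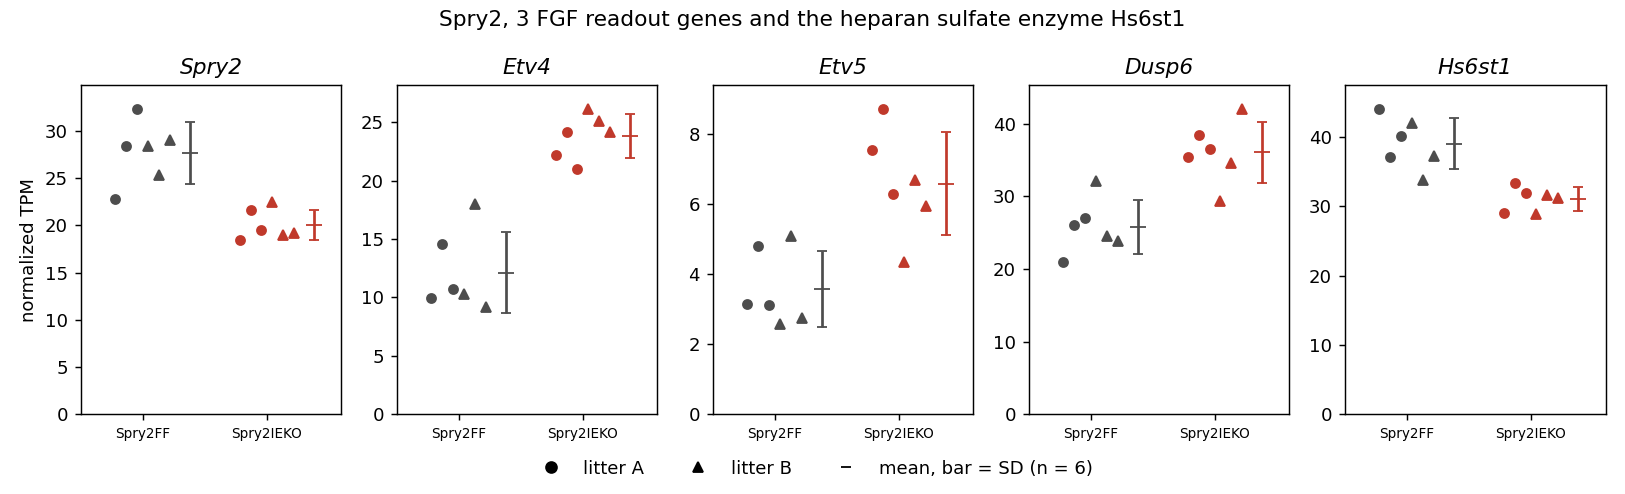
Spry2, the FGF and ERK readout genes Etv4, Etv5 and Dusp6, and the heparan sulfate enzyme Hs6st1 in normalized TPM (y axis, from 0) in 6 Spry2FF and 6 Spry2IEKO mice; circles are litter A, triangles litter B, bars mean ± SD. Genotypes do not overlap for Spry2, Etv4 and Hs6st1 and overlap for Etv5 and Dusp6, and of the 5 genes Etv4 alone passed the adjusted test.

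The genes whose levels across the 12 mice were most like those of each member but Fgf9 were listed by Pearson's r on the log2 scale among 14380 genes, as a description over mice that share litter, scaling and tissue makeup. Fgfr1 was most like Mmp17 (r = 0.956), Wwtr1 (r = 0.949) and Gas1 (r = 0.937). Fgfr2 was most like Zmiz1 (r = 0.922), Cpeb3 (r = 0.904) and Cdon (r = 0.900). For Fgfr3 these were Cplane1 (r = 0.888), Aagab (r = 0.875) and Cog5 (r = 0.852), and for Fgfr4 they were Aldh16a1 (r = 0.895), Use1 (r = 0.861) and Rsph9 (r = 0.841). Among the ligands, Fgf7 was most like Farp1 (r = 0.939), Glb1 (r = 0.898) and Smcr8 (r = 0.883), and Fgf10 most like Ldhd (r = 0.914), Fam13a (r = 0.910) and Igkv1-88 (r = 0.905). Fgf2 was most like B9d1 (r = 0.913), Lca5 (r = 0.910) and Apol9a (r = 0.897), and Fgf18 most like Dpy19l3 (r = 0.915), Aff4 (r = 0.889) and Pakap (r = 0.864). No member was among the 3 genes most like another member. Fgfr3 and Fgf10 each had 1 mouse far from the rest, at 51.2 and 3.62 normalized TPM, which can weigh on r. Cplane1 ran from 1.19 to 13.8 around a mean of 2.87, and Igkv1-88 from 0 to 13.3 around 2.06. The r values without these mice were not tested.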

How the data were processed

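Values of 12 mice were analysed, with groups, litter and sex from the deposited labels. Per the labels, libraries came from a stranded mRNA kit, and the tools named in the submitters' processing notes are CASAVA, kallisto and sleuth with build mm10. For each transcript the deposited signal is a TPM value that the authors scaled between mice; the plan assumed TPM and its tests were kept. Columns of the authors' own comparison (p-values and q-values) were not used. Paired-end reads are given in the labels and single-end reads in the study's methods.

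Of 113974 entries, 781 repeats were dropped, 26 date-like gene names were restored, and transcripts were summed per gene. Transcript annotation was GENCODE M21 (85 of 86 member transcripts matched with version, 1 with another version). For genes, transcripts and within-gene shares, limma 3.58.1 (R 4.3.3) was the test (two-sided, trend, log2 with pseudocount 0.5, mean of at least 0.5; shares as log2 of a transcript over the rest of its gene, in genes with a mean of at least 2 and transcripts of 0.05 to 0.95 of the gene), and single values by exact permutation. Marker scores are mean z-scores per mouse. Exons were aligned with Biopython 1.88. Steps were tested on simulated data. Tables were handled in pandas 2.3.3 under Python 3.11.15, with SciPy 1.17.1, and plots came from matplotlib 3.10.9. Alternatives were pseudocount, filter, scaling, covariates, subsets and left-out mice.

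Named were all members, their transcripts of at least 0.1 of a gene, the called genes of each pathway list or else the 2 with the lowest p, and the 3 genes most like each member. Some of these genes and exon sequences are not reported here. Members and lists were chosen with earlier results of these data known. How mice were housed and in which batches RNA was processed is not given in the labels, apart from a description code that goes with litter, and p-values measure the spread between these mice.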

Additional observations from a re-analysis of the deposited data

Results flagged for a closer look

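Of 69 groups of 6 mice checked, 8 held a mouse far from the other 5 by Dixon's criterion. Chance gives about 1 in 20 for a single group. The groups are not independent, since genes were checked along with their own transcripts. The count therefore cannot be set against that rate. Of the 8, 4 were in Spry2FF replicate 7. Fgfr3 was 51.2 normalized TPM there against 25.8 to 31.1 in the other Spry2FF mice, its transcript Fgfr3-211 was 15.4 against 10.1 to 12.1, Fgfr3-217 was 18.8 against 7.28 to 10.9, and Fgfr1-201, a IIIc transcript, was 0.0581 against 1.35 to 1.8. Spry2IEKO replicate 5 accounted for 3. Fgf10 was 3.62 there against 1.02 to 1.73 in the other Spry2IEKO mice, its transcript Fgf10-201 was 3.18 against 0.984 to 1.73, and the full-length Fgf18-201 was 2.26 while it was listed at 0 in the other 5. The last was the IIIb share of Fgfr3 in Spry2FF replicate 13, which was 72.2% against 83.1% to 87.9%.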

How the results depend on the processing

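The labels give no pairs of single mice, but blocking by litter was possible, and the main genotype tests did not use it. With litter as a covariate, the genes past an adjusted p of 0.05 by limma went from 5 to 6. Those at an unadjusted p under 0.05 went from 981 to 1302. No member passed an adjusted p of 0.05 between genotypes in any alternative. Over all genes, the 5 genotype calls became 1 without a filter, 1 with sex as a covariate, 2 in litter A, 1 in litter B, 2 in females, 2 with quantile normalization, 1 with the fat score as a covariate and 1 without the 2 fat-rich mice (the last 2 chosen after seeing the data), and 1 to 11 without 1 mouse at a time. The 1 transcript call became 2 without a filter and 0 with sex, and 0 to 4 without 1 mouse, and the 0 share calls 0 to 2. The 696 litter calls became 422 without a filter and 1456 with rescaling, and 180 (without Spry2IEKO replicate 5) to 957 without 1 mouse. The 2 interaction calls became 2 to 5. The 12 epithelial calls became 0 with a pseudocount of 0.1, with litter and genotype, and with rescaling, and 0 to 95 without 1 mouse. The 144 smooth muscle calls became 193 with litter and genotype and 41 to 177 without 1 mouse. The 819 fibroblast calls became 2 with litter and genotype, and 215 (without Spry2IEKO replicate 12) to 905 without 1 mouse. The 0 of 12 single values at an exact p under 0.05 became 1 within litters (Fgf10), 1 in females (Fgfr4) and 0 to 1 without 1 mouse (Fgf10, exact p = 0.0281 without Spry2IEKO replicate 12). The cause of these shifts was not tested.

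Some genotype differences of the members changed sign, none of them past the threshold. On the log2 scale, Fgfr1 was -0.02 in litter B, -0.04 with the fat score and -0.06 without the 2 fat-rich mice. Fgfr2 was -0.06 in litter A, Fgfr4 was 0.01 without the 2 fat-rich mice, Fgf2 was 0.01 in females, and Fgf9 was 0.11 in litter A and 0.04 both with the fat score and without those mice. Without 1 mouse at a time, Fgfr1 ran from -0.04 to 0.14, Fgfr2 from -0.05 to 0.12, Fgfr3 from -0.15 to 0.04, Fgf9 from -0.17 to 0.05, and the litter difference of Fgfr3 from -0.18 to 0.04. With full-length coding transcripts alone (chosen after seeing the data), the difference in normalized TPM was -0.463 in place of 0.335 for Fgfr1, -2.11 in place of 2.02 for Fgfr2, 0.0814 in place of -0.598 for Fgf2 and 0.0128 in place of -0.133 for Fgf9, with an exact permutation p of 0.524 or more. The difference in the IIIb share of Fgfr3 was 2.38 points in females and ran from -2.59 to 0.725 without 1 mouse at a time. That of Fgfr2 ran from 1.79, without Spry2IEKO replicate 5, to 6.21, without Spry2FF replicate 7. That of Fgfr1 ran from -10.8 to -2.28, and neither of these changed sign. Without read counts, how much of the spread of the low ligands is counting error is unknown.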
